A study of Homo sapiens with 6 samples.

Results

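The cell cycle and replication genes described here are 49 genes that were listed by symbol, none of them on chromosome 20, out of 26255 gene symbols in the expression table. The rule itself uses function and position and no measured value. The 49 genes were chosen with earlier results of these data known. The list, with chromosome 20 left out, can therefore not be taken as independent of them. The data were mRNA sequencing of MDA-MB-231, an established human triple-negative breast cancer cell line of mesenchymal type. The groups were cells with a control hairpin (shNT, 3 libraries) and cells with a hairpin against GPR81 (shGPR81, 3 libraries), a lactate receptor encoded by HCAR1. Both groups came from cells infected with lentivirus and selected with puromycin, so the viral vector and the antibiotic resistance were common to them. The study describes 2 hairpins against GPR81, and neither the labels nor the methods say which of them the sequenced cells carried. The methods speak of resistant clones being selected, without saying how many made up a line, or whether the replicates were separate cultures. The p-values below therefore measure the spread between these libraries, which may be technical, and the hairpin and the derived line cannot be told apart. The study reports less proliferation in culture and smaller tumors in mice for shGPR81 cells than for shNT cells. Whether the sequenced shGPR81 line was the one grown in each of those experiments is not stated. The comparison asked whether the mRNA of the genes that run the cell cycle differed between the groups.

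A dividing cell commits to the cycle when D-type cyclins with CDK4 and CDK6 begin to phosphorylate RB, which releases E2F transcription factors. E2F then drives cyclin E, the licensing of replication origins by ORC1, CDC6, CDT1 and the MCM helicase, and the enzymes that make deoxynucleotides. A later wave of genes, switched on through B-MYB, FOXM1 and NF-Y, builds the mitotic machinery: cyclin B with CDK1, the Polo and Aurora kinases, the kinetochore and the spindle checkpoint. MDA-MB-231 cells lack the CDKN2A locus, which encodes an inhibitor of CDK4 and CDK6, and CDKN2A and its neighbour CDKN2B were listed at 0 in all 6 libraries.

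The 2 waves are known for different promoter motifs, and 5 promoters are shown so that a mitotic and an S-phase gene can be set side by side. Each is the 160 bases before the RefSeq start in GRCh38.p14, printed 5′ to 3′ on the strand of the gene. Capitals mark TTTGAA (the cell cycle homology region of mitotic genes), CCAAT (the NF-Y motif) and TTTCCCGC or TTTGGCGC (E2F motifs), or the reverse complement of each. CCNB2 lies at chr15:59104986-59105145 (plus strand), PLK1 at chr16:23678729-23678888 (plus strand), RRM2 at chr2:10122579-10122738 (plus strand), MCM6 at chr2:135876444-135876603 (minus strand) and PCNA, a chromosome 20 gene outside the list, at chr20:5126623-5126782 (minus strand).
CCNB2: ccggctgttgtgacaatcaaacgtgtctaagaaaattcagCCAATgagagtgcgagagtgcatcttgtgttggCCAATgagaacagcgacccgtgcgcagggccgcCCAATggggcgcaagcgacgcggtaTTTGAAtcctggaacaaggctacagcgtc
PLK1: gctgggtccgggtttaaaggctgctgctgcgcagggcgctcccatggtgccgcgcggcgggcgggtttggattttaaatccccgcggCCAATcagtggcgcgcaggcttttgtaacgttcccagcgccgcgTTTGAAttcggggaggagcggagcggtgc
RRM2: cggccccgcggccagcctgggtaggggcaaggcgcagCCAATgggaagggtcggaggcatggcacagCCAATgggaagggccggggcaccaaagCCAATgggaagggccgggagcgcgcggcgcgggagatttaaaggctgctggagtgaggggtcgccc
MCM6: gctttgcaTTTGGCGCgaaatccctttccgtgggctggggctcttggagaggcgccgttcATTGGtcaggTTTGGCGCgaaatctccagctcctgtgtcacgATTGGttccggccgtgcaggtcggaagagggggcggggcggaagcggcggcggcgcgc
PCNA: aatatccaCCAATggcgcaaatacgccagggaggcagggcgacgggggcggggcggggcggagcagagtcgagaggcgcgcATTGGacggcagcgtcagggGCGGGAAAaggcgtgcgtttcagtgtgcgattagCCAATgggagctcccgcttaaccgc

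CCNB2 and PLK1 each held TTTGAA 29 bases before the start with CCAAT upstream of it. MCM6 held an E2F motif at 152 and at 90 bases before the start, and RRM2 held 3 CCAAT motifs and neither of the others in these 160 bases. A promoter window of 250 bases before to 50 after the start was found in the RefSeq table for 40 of the 49 genes. Within it, on either strand, TTTGAA occurred in 14 of 40 windows (35%, against 15.4% of 27305 promoters of all genes), CCAAT in 26 of 40 (65%, against 35.7%) and an E2F motif in 10 of 40 (25%, against 2.31%). TTTGAA was found in 10 of 15 mitotic genes of the list and in 2 of 16 S-phase genes, whereas an E2F motif was found in 2 of 15 and 8 of 16. A match is a description of the letters in the window, and no match says nothing of the factor.

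Values are FPKM, the fragments per kilobase of transcript and per library size as given by the authors, so levels can be compared between genes as levels per length. Whole reads could be recovered in 4678 genes and gave a median over genes of 11867615 to 12706660 reads per library. The libraries of a group differed from each other by more than counting noise, with a chi-square per gene of 1.72 to 3.06, and none was a copy of another. A fold change is the difference of means of log2(FPKM + 0.1), shGPR81 minus shNT. It was tested with limma in 14349 genes that reached 0.1 FPKM in 3 or more of the libraries. Calls required a fold above 1.5 together with an adjusted p (Benjamini-Hochberg) under 0.05. The exact permutation test of 3 against 3 libraries cannot go below p = 0.1. Of 8 mesenchymal markers 7 passed the filter, from ZEB1 (mean over the libraries 18.0 FPKM) to VIM (3843 FPKM), and SPARC did not (0.0799 FPKM). Of 18 luminal markers ESR1, PGR and CDH1 were listed at 0 in all 6 libraries, and the other 15 passed, among them KRT18 (207 FPKM), KRT8 (153 FPKM), KRT19 (95.1 FPKM), AGR2 (93.5 FPKM), MLPH (44.8 FPKM) and XBP1 (30.6 FPKM). Not all luminal markers were thus absent from these mesenchymal cells. Of 15 tested luminal markers TFF1 and TFF3 were called lower and ERBB3 was called higher with shGPR81, and of 7 tested mesenchymal markers 0 were called. The part of this in the results below was not tested.

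HCAR1, the gene aimed at by the hairpin, was measured first. It lies on chromosome 12 (GRCh37, 123210623 to 123215391, minus strand) and had 37, 40 and 52 reads in shNT and 40, 36 and 16 reads in shGPR81. These were 0.968, 1.02 and 1.36 FPKM against 0.978, 0.891 and 0.396 FPKM. The groups overlapped, and the log2 fold change of -0.57 (SE 0.31, limma adjusted p = 0.38) did not pass the test. Without replicate 3 of shGPR81 it was -0.22. With all libraries, its 95% interval was -1.30 to 0.15 on the log2 scale (0.41 to 1.11-fold). That range held both no change and a reduction to 0.41-fold, so these reads cannot decide on the knockdown. The paper reports less GPR81 by RT-qPCR and western blotting in the lines with either hairpin. Since the targeted transcript did not separate the groups in these libraries, they are called by their labels throughout.

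The cell cycle genes were expressed at high level and at nearly the same level in both groups. Of the 49 genes, 48 passed the filter on low values, with group-wide means from 4.46 FPKM (E2F2) to 244 FPKM (CDC20) and a median of 60.6 FPKM against 8.24 FPKM over all tested genes. By limma, 0 of the 48 were called lower and 0 were called higher with shGPR81, where 1.59% and 0.955% of all tested genes were called (2.54% in either direction). None of the 48 reached an adjusted p under 0.05 at any fold (5.13% of all tested genes did), and the treat test of limma, with the 1.5-fold limit as its null, also called 0. At an unadjusted p under 0.05 there were 7 (19.5% of all tested genes): CCND1, CDK2, CDKN2C, CDKN2D, ORC1 and PRC1 higher and RRM2 lower with shGPR81. Groups did not overlap in 11 genes, 9 higher and 2 lower, where 25.6% of all tested genes did not. Over both directions together these shares lie below the background, so they do not set the list apart. By direction, 1847 of the 14349 tested genes did not overlap with shGPR81 higher and 1825 with it lower. At an unadjusted limma p under 0.05 there were 1444 higher and 1353 lower. For both measures the share of the 48 was above the background for higher values and below it for lower ones, which was not tested. The background includes chromosome 20, which the list leaves out. Of 13325 tested genes on other chromosomes, 534 had an adjusted p under 0.05, 2428 had an unadjusted p under 0.05, and 3281 did not overlap.

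How large a difference between these 2 sets of libraries the data leave room for is given by the intervals. All 48 of the tested genes had a 95% interval that stayed within 1.5-fold in either direction, against 69.8% of all tested genes, which are on the whole less expressed. The lowest bound was that of CDKN1C at -0.52 and the highest that of CDKN2D at 0.45 on the log2 scale. The log2 fold changes ran from -0.20 (RRM2) to 0.28 (CDKN2D) with a median of 0.04, against 0.01 over all tested genes. They were above 0 in 31 and below 0 in 17 (51.9% of all tested genes were above 0). FPKM are relative to the whole library, and in bulk RNA a smaller share of cycling cells and less mRNA per cycling cell cannot be told apart.

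**Figure D1:**
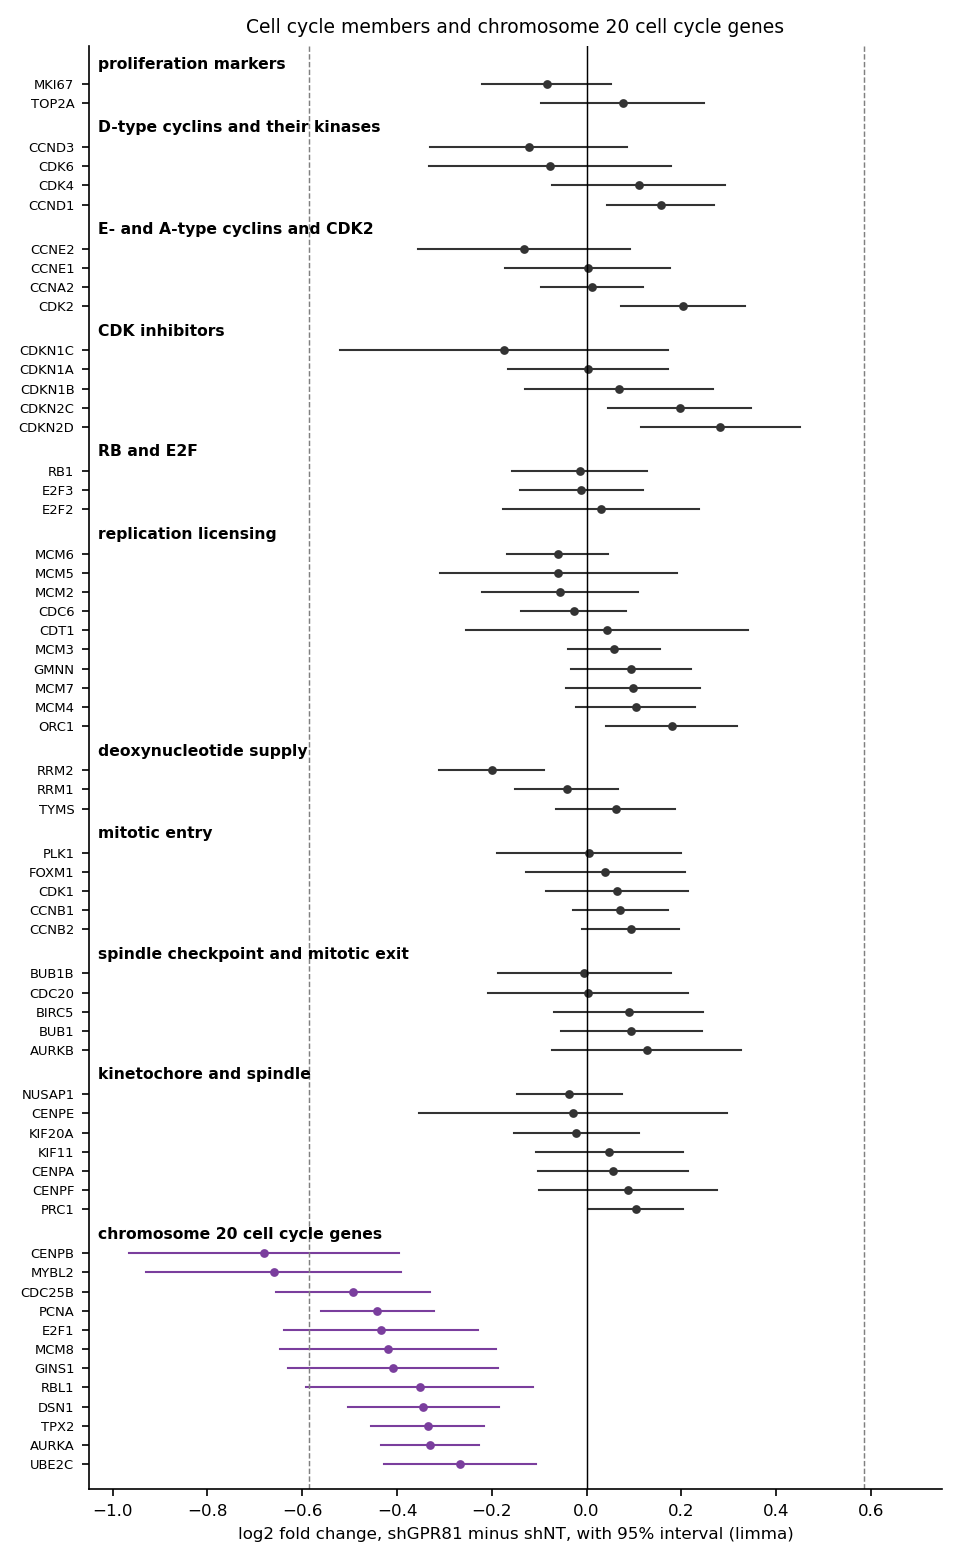
Log2 fold change (shGPR81 minus shNT, horizontal axis) of the 48 tested cell cycle genes by role (black) and of 12 cell cycle genes on chromosome 20 (purple); points are limma estimates from 3 against 3 libraries, lines are 95% intervals, and dashed lines mark 1.5-fold. All black intervals lie inside the dashed lines, with estimates from -0.20 to 0.28, while the 12 purple estimates lie between -0.68 and -0.27.

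MKI67 encodes Ki-67, the antigen used in the clinic to score proliferation. It was measured at 66.7, 65.2 and 68.7 FPKM in shNT and at 58.7, 66.0 and 64.8 FPKM in shGPR81. The groups overlapped, since replicate 2 of shGPR81 lay above replicate 2 of shNT, and the log2 fold change was -0.08 (SE 0.06 and adjusted p = 0.51). TOP2A, the topoisomerase that untangles replicated chromosomes and the target of anthracyclines, was measured at 176, 157 and 145 FPKM in shNT and at 163, 173 and 167 FPKM in shGPR81. All 3 shGPR81 values lay within the range of the shNT values, and the log2 fold change was 0.08 (SE 0.07 and adjusted p = 0.655). The 2 proliferation markers thus lay on opposite sides of 0, both within their spread.

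The D-type cyclins and their kinases, which start the cycle, were led by CCND1. Cyclin D1 was measured at 121, 121 and 127 FPKM in shNT and at 135, 134 and 143 FPKM in shGPR81. All 3 shGPR81 libraries were above all 3 shNT libraries, with a log2 fold change of 0.16 (SE 0.05) that did not pass the adjustment (adjusted p = 0.126). CCND3, the D-type cyclin of many blood cells, was measured at 58.4, 69.4 and 70.2 FPKM in shNT and at 58.7, 57.0 and 66.0 FPKM in shGPR81, which overlapped (log2 fold change -0.12, SE 0.09). CCND2, the third D-type cyclin, was the 1 gene of the list that failed the filter, with 0, 3 and 1 reads in shNT and 0, 0 and 2 reads in shGPR81. At such counts no difference could be seen. The kinases CDK4 and CDK6 had log2 fold changes of 0.11 and -0.08, with overlapping groups, and CDK4 was the more abundant, with means of 119 and 129 FPKM in shNT and shGPR81.

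CDK2, the kinase that cyclins E and A activate to fire replication origins, was measured at 32.9, 34.8 and 31.1 FPKM in shNT and at 38.2, 37.5 and 38.0 FPKM in shGPR81. The groups did not overlap, and the log2 fold change was 0.20 (SE 0.06 and adjusted p = 0.093). Its partner CCNA2, cyclin A2, was measured at 67.1, 64.0 and 64.6 FPKM in shNT and at 67.3, 64.2 and 65.8 FPKM in shGPR81, a log2 fold change of 0.01 (SE 0.05) whose 95% interval reached from -0.10 to 0.12. CCNE2, cyclin E2, had 16.3, 13.1 and 13.2 FPKM in shNT and 12.7, 13.4 and 12.6 FPKM in shGPR81. Replicate 1 of shNT was the high value, and the log2 fold change of -0.13 (SE 0.10 and adjusted p = 0.529) became -0.03 without it. CCNE1 differed by 0.00 on the log2 scale.

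CDK inhibitors are the brakes of the cycle and are often raised in arrested cells. CDKN1A encodes p21, the inhibitor induced by p53 and by several antiproliferative signals. It was measured at 19.03, 20.8 and 22.5 FPKM in shNT and at 20.4, 20.5 and 21.4 FPKM in shGPR81. The shGPR81 values all fell inside the shNT range, and the log2 fold change was 0.00 (SE 0.07 and adjusted p = 0.99) with a 95% interval of -0.17 to 0.17; its sign turned under several scalings of the values. The 2 INK4 inhibitors that MDA-MB-231 cells express, which bind CDK4 and CDK6, were higher in all 3 shGPR81 libraries without passing the adjusted test. CDKN2D (p19; GRCh37 chromosome 19, 10677136 to 10679735, minus strand) was measured at 27.9, 26.2 and 28.9 FPKM in shNT and at 34.3, 30.9 and 35.9 FPKM in shGPR81. Its log2 fold change of 0.28 (SE 0.07 and adjusted p = 0.0746) was the largest of the 48, and its interval of 0.11 to 0.45 corresponds to 1.08 to 1.37-fold. CDKN2C (p18; GRCh37 chromosome 1, 51426417 to 51440306, plus strand) was measured at 30.8, 33.8 and 35.2 FPKM in shNT and at 36.8, 38.0 and 39.5 FPKM in shGPR81, a log2 fold change of 0.20 (SE 0.06 and adjusted p = 0.145). The other inhibitors of the CIP/KIP family, CDKN1B (p27) and CDKN1C (p57), had log2 fold changes of 0.07 and -0.17 with overlapping groups.

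RB1, the pocket protein that holds E2F in check, was measured at 32.4, 29.8 and 30.0 FPKM in shNT and at 29.9, 32.1 and 29.3 FPKM in shGPR81. The values interleaved, with a log2 fold change of -0.01 (SE 0.06). E2F2, an activator E2F and the least abundant tested gene of the list, had 4.35, 4.19 and 4.71 FPKM against 4.47, 4.76 and 4.30 FPKM (log2 fold change 0.03, SE 0.09). E2F3 differed by -0.01. None of these 3 genes differed by more than its spread.

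The replication licensing genes load the MCM2-7 helicase onto origins in G1. MCM2 was measured at 55.3, 61.8 and 65.0 FPKM in shNT and at 55.6, 58.8 and 60.5 FPKM in shGPR81, a log2 fold change of -0.06 (SE 0.07). MCM3 was the most abundant of the group, at 145, 145 and 149 FPKM in shNT and 151, 153 and 151 FPKM in shGPR81. The MCM3 groups did not overlap, but the difference was 0.06 on the log2 scale (SE 0.04 and adjusted p = 0.524). MCM4 was measured at 61.7, 59.8 and 59.3 FPKM in shNT and at 67.8, 65.6 and 61.1 FPKM in shGPR81, which overlapped at one library of each (log2 fold change 0.10, SE 0.05). The 6 helicase subunits form 1 complex, and their log2 fold changes lay between -0.06 (MCM6) and 0.10 (MCM4), 3 above and 3 below 0. ORC1, the subunit of the origin recognition complex that comes and goes with the cycle, was measured at 13.9, 14.7 and 13.8 FPKM in shNT and at 16.4, 16.1 and 15.5 FPKM in shGPR81. The ORC1 groups did not overlap, and the log2 fold change was 0.18 (SE 0.06 and adjusted p = 0.147). The loaders CDC6 and CDT1 and their inhibitor GMNN (geminin) lay at -0.03, 0.04 and 0.09.

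RRM2, the small subunit of ribonucleotide reductase and the limiting enzyme of deoxynucleotide supply, had the lowest adjusted p of the list. It lies on chromosome 2 (GRCh37, 10260825 to 10351851, plus strand) and was measured at 130.2, 129 and 129.6 FPKM in shNT and at 109, 112 and 118 FPKM in shGPR81. All 3 shGPR81 libraries were below the shNT libraries, whose SD was 0.724 FPKM (n = 3), and the log2 fold change was -0.20 (SE 0.05 and adjusted p = 0.0587), or 0.806 to 0.939-fold by its interval. The large subunit RRM1, which works in the same enzyme, had a log2 fold change of -0.04 (SE 0.05). TYMS, thymidylate synthase and the target of fluorouracil, was measured at 100.5, 104 and 108 FPKM in shNT and at 104, 109 and 114 FPKM in shGPR81. TYMS overlapped between the groups (log2 fold change 0.06, SE 0.05), and the 3 enzyme genes lay on both sides of 0.

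The mitotic entry genes lay above 0 in 5 of 5 (51.9% of all tested genes did), by small amounts and with PLK1 at 0.00. CCNB1, cyclin B1, was measured at 217, 222 and 225 FPKM in shNT and at 229, 236 and 232 FPKM in shGPR81, a log2 fold change of 0.07 (SE 0.04 and adjusted p = 0.438). CCNB2, cyclin B2, was measured at 85.1, 88.9 and 88.1 FPKM in shNT and at 94.8, 91.8 and 92.8 FPKM in shGPR81, a log2 fold change of 0.09 (SE 0.04 and adjusted p = 0.305). Neither cyclin B overlapped between the groups, and neither passed the test. PLK1, the Polo kinase of mitotic entry, was measured at 82.3, 93.4 and 98.1 FPKM in shNT and at 86.9, 87.8 and 99.7 FPKM in shGPR81. These overlapped over most of their range, with a log2 fold change of 0.00 (SE 0.08 and adjusted p = 0.984) whose sign turned under other scalings. CDK1 and FOXM1, the mitotic kinase and a transcription factor of the mitotic genes, lay at 0.06 and 0.04. The sign of FOXM1 also turned, from -0.0263 to 0.0954 over the other ways of processing.

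The spindle checkpoint holds anaphase until all chromosomes are attached, and CDC20 then activates the ubiquitin ligase that ends mitosis. CDC20 was measured at 214, 251 and 268 FPKM in shNT and at 231, 241 and 261 FPKM in shGPR81, a log2 fold change of 0.00 (SE 0.09, sign turning under other scalings). AURKB, the Aurora kinase that corrects attachments, was measured at 75.9, 91.1 and 90.1 FPKM in shNT and at 94.97, 86.4 and 98.8 FPKM in shGPR81. Replicate 1 of shNT was the low AURKB value, and the log2 fold change of 0.13 (SE 0.09 and adjusted p = 0.493) became 0.04 without it. BUB1, a checkpoint kinase, was measured at 56.3, 49.4 and 51.6 FPKM in shNT and at 56.6, 57.9 and 53.3 FPKM in shGPR81 (log2 fold change 0.09, SE 0.06). BUB1B and BIRC5 (survivin) lay at -0.01 and 0.09.

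Among the kinetochore and spindle genes, PRC1, which bundles the microtubules of the central spindle, was measured at 59.4, 59.1 and 58.9 FPKM in shNT and at 62.4, 64.9 and 63.4 FPKM in shGPR81. The shNT values lay within an SD of 0.274 FPKM (n = 3), so the groups did not overlap at a log2 fold change of 0.10 (SE 0.04 and adjusted p = 0.244). CENPF, a kinetochore protein, was measured at 55.9, 47.6 and 45.3 FPKM in shNT and at 51.4, 53.6 and 52.3 FPKM in shGPR81, with the shGPR81 values inside the shNT range (log2 fold change 0.09, SE 0.08). NUSAP1, a spindle protein, was measured at 101, 94.1 and 97.9 FPKM in shNT and at 94.1, 95.2 and 96.8 FPKM in shGPR81 (log2 fold change -0.04, SE 0.05). CENPA, CENPE, KIF11 and KIF20A lay between -0.03 and 0.06.

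**Figure D2:**
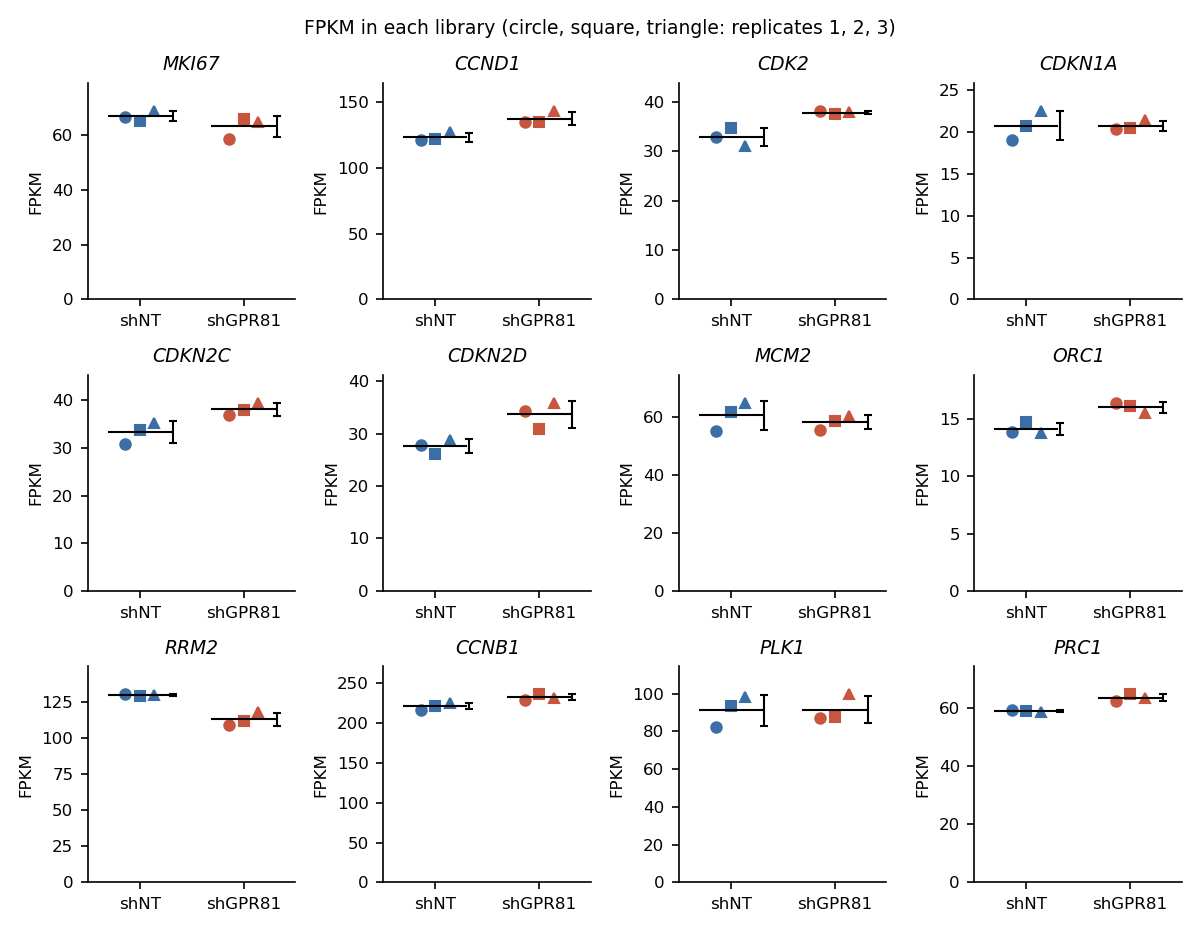
FPKM (vertical axis, from 0) of 12 cell cycle genes in the 3 shNT and 3 shGPR81 libraries; each symbol is 1 library, horizontal lines are group means and bars are ±1 SD (n = 3). CDKN1A, MCM2 and PLK1 overlap between groups, whereas RRM2 is lower (109 to 118 against 129 to 130.2 FPKM) and CDK2 higher (37.5 to 38.2 against 31.1 to 34.8 FPKM) in every shGPR81 library.

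Taken by phase, the 20 S-phase genes (E- and A-type cyclins with CDK2, RB and E2F, licensing and deoxynucleotide supply) had a median log2 fold change of 0.01, with 11 above 0. The 17 mitotic genes had a median of 0.06, with 13 above 0, where 51.9% of all tested genes were above 0. The genes whose promoter window held TTTGAA had a median of 0.03 (14 genes), those with CCAAT 0.06 (26 genes) and those with an E2F motif 0.04 (10 genes), and 0 of them were called. Within a library, the median deviation of the 48 tested genes from the mean of the 6 libraries was -0.02, -0.03 and -0.01 in shNT and 0.01, 0.02 and 0.03 in shGPR81. Each gene was centred on its 6 libraries, so its group means mirror each other around 0. That the groups lay on opposite sides of 0 is thus largely built in. They lay within 0.1 of each other on the log2 scale, and this median has no test.

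Other genes of the same pathway were 62, listed by function. Of them, 60 were tested, 0 were called, and 46 lay above 0 with a median log2 fold change of 0.07. The share above 0 was thus higher than that of all tested genes (51.9%), which had a median of 0.01. At an unadjusted p under 0.05 there were 7 of 60, and 12 of 60 did not overlap between the groups, both below the shares of all tested genes (19.5% and 25.6%). CKS2, a small subunit of the cyclin-dependent kinases, was the 1 gene with an adjusted p under 0.05 in the values as deposited, at 385, 368 and 357 FPKM in shNT and 465, 422 and 443 FPKM in shGPR81. All 3 shGPR81 values of CKS2 were higher, by 0.26 on the log2 scale (SE 0.06 and adjusted p = 0.0446), which is under 1.5-fold. Among the S-phase genes of this wider list the largest differences were those of CDC25A, the phosphatase that activates CDK2, at -0.24 (SE 0.07), and of POLD1, a replicative polymerase, at 0.22 (SE 0.11). Among its mitotic genes, NUF2 of the kinetochore lay at 0.32 (SE 0.11 and adjusted p = 0.146) and CKS2 at 0.26.

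The cell cycle genes of chromosome 20, which are not members of the list, were lower with shGPR81. There are 12 of them: E2F1, PCNA, AURKA, MYBL2, UBE2C, TPX2, CDC25B, RBL1, GINS1, MCM8, DSN1 and CENPB. All 12 were lower in every shGPR81 library than in any shNT library, 8 had an adjusted p under 0.05, and 2 were called lower. Of all tested genes, 25.6% did not overlap between the groups, 5.13% had an adjusted p under 0.05 and 1.59% were called lower. Their log2 fold changes ran from -0.68 to -0.27 with a median of -0.41. The sliding clamp PCNA, which works with the replication genes above, was measured at 241, 222 and 222 FPKM in shNT and at 166, 166 and 172 FPKM in shGPR81 (log2 fold change -0.44, SE 0.05, adjusted p = 0.00378). The called genes were MYBL2, which encodes the B-MYB factor of the mitotic wave, and CENPB, a centromere protein.

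MYBL2 had 66.8, 81.9 and 91.1 FPKM in shNT and 47.98, 47.7 and 54.97 FPKM in shGPR81 (log2 fold change -0.66, SE 0.12, adjusted p = 0.0189). CENPB had 28.1, 34.9 and 40.6 FPKM in shNT and 21.1, 20.9 and 21.8 FPKM in shGPR81 (-0.68, SE 0.12, adjusted p = 0.021). In both genes the highest shGPR81 library lay below the lowest shNT library. Over all 388 tested genes of chromosome 20, these 12 included, 353 lay below 0 and 35 above, and 49 were called lower and 3 higher. Of the 388, 283 did not overlap between the groups (274 lower and 9 higher). An adjusted p under 0.05 was reached by 186 (183 lower and 3 higher), so the pattern was not particular to the cell cycle genes. The median was -0.39, against 0.01 for 13325 tested genes on other chromosomes.

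**Figure D3:**
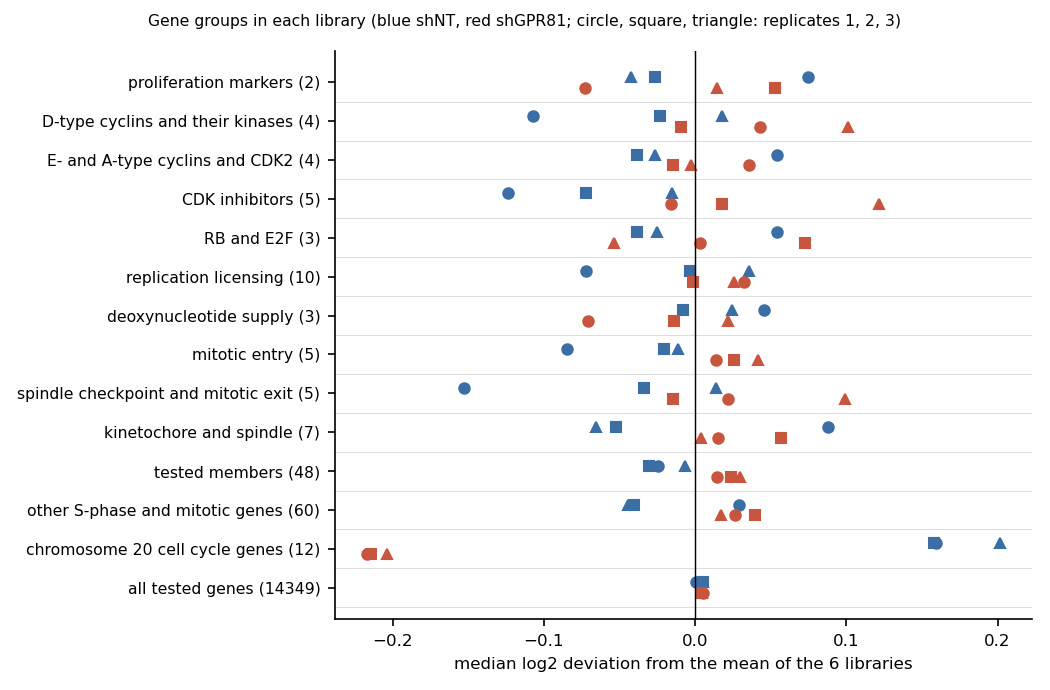
Median log2 deviation from the mean of the 6 libraries (horizontal axis) for each role group, the tested members, the wider pathway list, the chromosome 20 cell cycle genes and all tested genes, with the number of genes in parentheses; each symbol is 1 library (blue shNT, red shGPR81). The chromosome 20 genes separate the groups (0.16 to 0.20 against -0.22 to -0.20), whereas the tested members lie between -0.03 and 0.03 and several role groups are set apart by shNT replicate 1 (circles).

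In some libraries the values moved with the base composition of the transcripts. In replicate 1 of shNT, the deviation of the 48 tested genes from the mean of the 6 libraries had a Spearman correlation of -0.81 with the GC content of the longest transcript (-0.46 over 13825 genes). In replicates 2 and 3 of shNT it was 0.26 and 0.66, and in shGPR81 -0.03, -0.37 and 0.66. With transcript length the same correlations were 0.45, 0.07 and -0.24 in shNT and -0.22, 0.24 and -0.45 in shGPR81. These are descriptions across genes of 1 library, which share its depth, and have no p. The 18 tested genes under 45% GC, among them TOP2A, had a median deviation of 0.07 in replicate 1 of shNT, and 10 of them were highest there. The 14 genes at 55% GC or more had -0.15 there, and 10 of them were lowest in it. The opposite positions of replicate 1 of shNT in the spindle checkpoint genes (-0.15) and the kinetochore genes (0.09) moved with this.

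With the trend on GC content removed in each library, a step chosen after the values were seen, the median SD within groups of the 48 genes fell from 0.0803 to 0.0555 on the log2 scale. Then 4 of the 48 had an adjusted p under 0.05, below the share of all genes (10.9%), each at a fold under 1.5, and 0 were called. CCND1 was at 0.16 (adjusted p = 0.0327), CDK2 at 0.21 (adjusted p = 0.0494), CDKN2C at 0.18 (adjusted p = 0.0234) and RRM2 at -0.20 (adjusted p = 0.0237). The sizes of these 4 mRNA differences stayed close to those in the values as deposited. At a share below that of all genes, they do not set the list apart. CDKN2D, the largest difference before, had 0.26 and an adjusted p of 0.0832. All 12 chromosome 20 genes had an adjusted p under 0.05 in it, and so had 6 of the 60 tested genes of the wider list, near the same 10.9%. These were CKS2 (0.26, adjusted p = 0.0174), NUF2 (0.31, adjusted p = 0.0195), CCNF (-0.27, adjusted p = 0.0204), ANLN (0.15, adjusted p = 0.0274), GINS4 (0.22, adjusted p = 0.0339) and POLD1 (0.19, adjusted p = 0.0381).

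**Figure D4:**
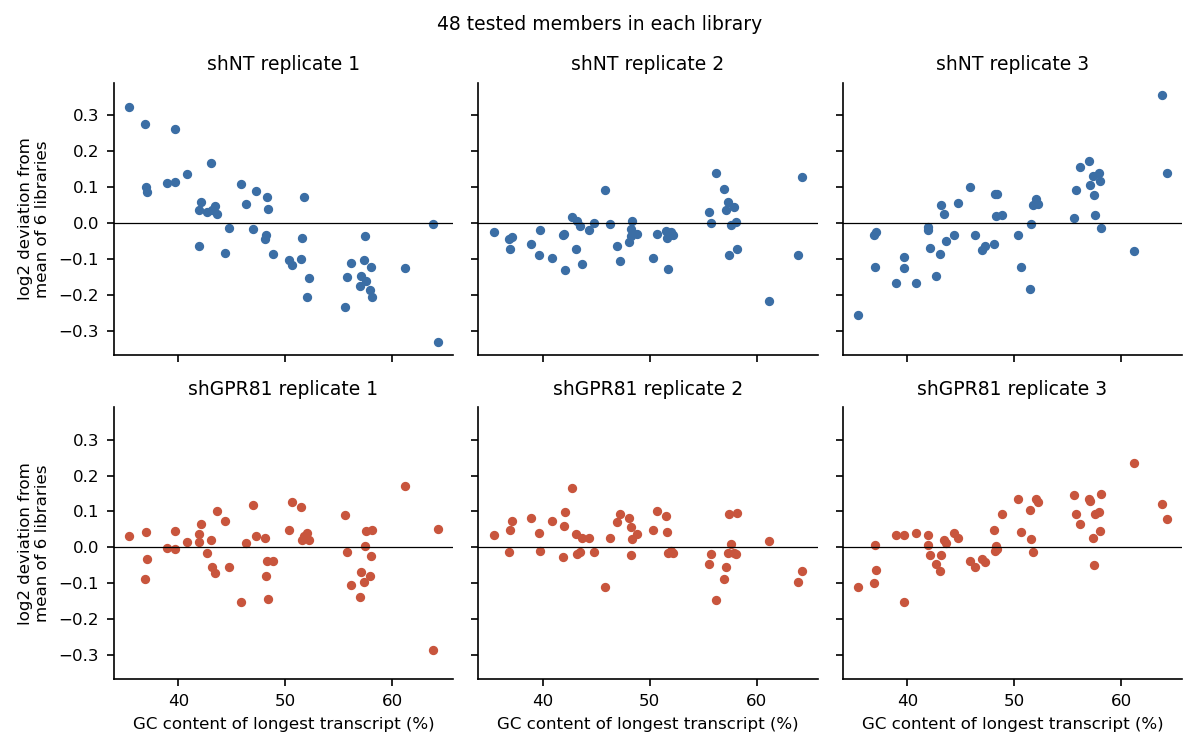
Log2 deviation from the mean of the 6 libraries (vertical axis) against GC content of the longest transcript in percent (horizontal axis) for the 48 tested cell cycle genes, 1 panel per library. In shNT replicate 1 the points fall with GC content (Spearman -0.81), and in replicate 3 of both groups they rise (0.66 each).

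Reads of a gene and of a gene on the other strand can mix if the strand was not used in counting, which the sources do not state for these stranded libraries. An exon of a coding gene on the other strand overlaps an exon of 11 of the 49 genes: CCND1, CDK4, CCNE2, CCNA2, CDK2, MCM7, TYMS, FOXM1, PLK1, KIF20A and NUSAP1. Their values carry that limit.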

How the data were processed

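Poly(A) RNA of 6 MDA-MB-231 libraries was sequenced in 75-base single-end mode from TruSeq stranded libraries. The authors deposited 1 table of FPKM, 1 value per symbol and library. The submitters' processing notes name TopHat2 2.0.13, Bowtie2 2.2.3, SAMtools 0.1.19 and Cuffnorm 2.2.1. The paper's methods name hg19 and GEO's text names mm10. The cells are human, and hg19 (GRCh37) was used. The annotation was not given in the sources used here. The methods describe read counts tested in iDEP. Since the values are FPKM, limma 3.58.1 (R 4.3.3, lmFit and eBayes with trend, no block) was used on log2(FPKM + 0.1). On simulated data, a log2 change of 1 was called in 95 of 100 changed genes. A log2 change of 0.3, which is under 1.5-fold, was called in 0 of 100, and 29 had a limma adjusted p under 0.05. The simulated noise was independent between genes and held no trend on GC content.

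The 49 members, the wider lists and the motifs were chosen with earlier results of these data known. Values in every library are given for MKI67, CCND1, CDKN1A, MCM2, CCNB1, PLK1, RB1, HCAR1, members under the filter, members with an adjusted p under 0.05, and in each role group the 2 largest differences and the highest mean. In each other list the called genes and the 2 largest differences are named. PCNA, CCNF, ANLN, GINS4 and the single markers fall outside this rule and were chosen after their values were seen, as were members given by a fold change alone. Gene positions and GC content are from GENCODE 44 on GRCh37. A symbol was matched for 23785 of 26255. Promoters are those of RefSeq on GRCh38.p14, and the builds were not mixed. Reads were recovered from steps in the FPKM at a tolerance of 0.0001. MIR6723 made up 28.1% to 36.2% of the column sums. Alternatives were the replicate block, other filters, pseudocounts and scalings, treat, leaving out each library, and, chosen after the data were seen, a GC correction (lowess, span 0.3).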

Additional observations from a re-analysis of the deposited data

How the results depend on the processing

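The count of cell cycle members called lower or higher stayed at 0 under each alternative. Of all tested genes, 228 were called lower and 137 higher, which became 142 and 75 with a pseudocount of 1 and 46 and 9 with treat. Leaving out 1 library gave 121 to 256 lower and 65 to 152 higher. The median log2 fold change of the tested members, 0.0412, became 0.0216 with equal column sums without MIR6723, 0.0249 with the GC correction and 0.0241 to 0.0482 when 1 library was left out. The cause of these moves was not tested.

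Genes near 0 changed sign. With equal sums without MIR6723, CCNA2 was at -0.00818, CDKN1A at -0.0172, PLK1 at -0.0152 and CDC20 at -0.0175. With median centring CDKN1A was at -0.00163 and CDC20 at -0.00193. With quantile normalization CDKN1A was at -0.0131, PLK1 at -0.00929 and CDC20 at -0.0111, and with the GC correction they were at -0.0113, -0.00711 and -0.0113. Leaving out 1 library in turn also changed the sign of CCNA2 (-0.00482 to 0.0322), CDKN1A (-0.0587 to 0.0614), RB1 (-0.0547 to 0.0243), E2F2 (-0.00773 to 0.077), PLK1 (-0.068 to 0.0586) and CDC20 (-0.0907 to 0.0722). These are members given in every library. Over the alternatives other than treat, CDK6 (-0.159 to 0.0341), CCNE1 (-0.0611 to 0.0395), E2F3 (-0.0306 to 0.0133), CDT1 (-0.112 to 0.124) and MCM5 (-0.163 to 0.0112) also held both signs. So did FOXM1 (-0.0263 to 0.0954), BUB1B (-0.0501 to 0.0774), CENPE (-0.164 to 0.126) and KIF20A (-0.0551 to 0.0142).

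Same-numbered libraries of the groups were not taken as pairs. Over all tested genes, their deviations from the group means correlated at 0.12, 0.0223 and 0.00577. These values do not cover the members alone. Among the members, replicate 3 of both groups rose with GC content (Spearman 0.66 each), and a shared replicate effect in them was not tested. With the number as a block, 197 genes were called lower and 115 higher, 0 members were called, and CDKN2D had an adjusted p of 0.042. RRM2 had 0.0487 with equal sums without MIR6723. HCAR1 lay between -0.78 and -0.22 when 1 library was left out. Among chromosome 20 cell cycle genes, 12 of 12 stayed below 0 under each alternative. Of the 2 called there, 0 were called with treat or without replicate 2 or 3 of shNT or replicate 1 or 2 of shGPR81, and 1 without replicate 3 of shGPR81.

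With 3 libraries a group, the 95% intervals give the differences of single members between these sets of libraries that the data leave room for. They do not cover the spread between separately derived lines. Small differences can be missed: in the simulated data, a log2 change of 0.3 reached a limma adjusted p under 0.05 in 29 of 100 genes.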
